A study of Mus musculus with 12 samples.

Results

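Lineage-negative mouse bone marrow cells that were made to express the leukaemia fusion MLL-AF9 together with PRDM16 differed from cells given MLL-AF9 with PRDM16mut across much of the transcriptome. The comparison rests on the 4 libraries of this cotransduction, 2 with PRDM16 and 2 with PRDM16mut, of 12 libraries in the series. All genes of the deposited table entered that reached an FPKM (fragments scaled by transcript length and library size) of 1 in 2 or more of the 4 libraries. Ribosomal precursor and small RNA entries were left out, and 10949 of 22570 remaining entries passed. With PRDM16, transcripts of the lysosomal proteases Ctss and Lgmn, of the ferritin chain Fth1, of the cholesterol pumps Abca1 and Abcg1 and of the phagocyte receptors Axl and Clec7a were more abundant. Those of the receptors Kit, Csf3r and C5ar1, of most DNA replication genes and of the enzymes Tph1 and Arg1 were less abundant.

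Both groups were C57BL/6 cells kept in IMDM with 15% serum and 10 ng/ml each of IL3, IL6 and SCF, and both received MLL-AF9. They were selected with G418 and puromycin for 10 days before RNA was taken. The first group carried PRDM16 and the second PRDM16mut, and the sources used here do not name the change in the mutant. No library without either form was part of the comparison, so a difference may come from PRDM16, from PRDM16mut or from both. Lineage-negative describes the cells at the start. After selection, Itgam, the integrin chain on myeloid cells that lineage depletion removes, was at 42.3 and 45.3 FPKM with PRDM16 and 119 and 119 FPKM with PRDM16mut. Cd3e, an antigen of T cells, was at no more than 0.0128 FPKM in any library.

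MLL-AF9 joins the chromatin regulator MLL to a partner that recruits elongation factors, and it holds marrow progenitors in a state that keeps renewing. PRDM16, which carries a PR domain and zinc fingers, is known from stem cell maintenance and from brown fat. Myeloid cells that leave such a state change their surface receptors, their lysosomes and their fuel use, so these groups of genes are described below by role.

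Prdm16 transcript was present in all 4 libraries, at 83.9 and 119 FPKM with PRDM16 and 29.5 and 30.1 FPKM with PRDM16mut. The level was 3.41-fold higher with PRDM16 (log2 difference 1.71 ± 0.15 SE, limma adjusted p = 8.0e-05), so the form and the amount of PRDM16 cannot be told apart. The absolute depth is unknown, since the values are not counts. Steps between low values put the second PRDM16 library at 1.62 times the depth of the first and the second PRDM16mut library at 0.974 times. The median absolute log2 difference between replicates was 0.106 for the PRDM16 pair and 0.0404 for the PRDM16mut pair. The labels do not say whether replicates were separate cultures, so the p-values rest on a spread between libraries that may be only technical. The ribosomal precursor Rn45s stood at 1542 and 1554 FPKM with PRDM16mut and was listed at 0 with PRDM16. The sources used here do not say whether both groups were processed alike, and such a difference and the groups cannot be told apart.

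Of the 10949 genes, 7803 (71.3%) passed an adjusted p of 0.05 (limma, Benjamini-Hochberg) and are called changed, with 3992 (36.5%) higher and 3811 (34.8%) lower with PRDM16. In 86.6% of genes the 2 groups had no overlap. A call was therefore common, and a second rule asked also for a log2 difference of at least 1, on the log2(FPKM + 1) scale. It held for 1675 genes (15.3%), 930 of them higher (8.49%) and 745 lower (6.8%). The counts of the lists below are to be read beside these shares of all genes, and those of some lists lay near them. The median log2 difference over all genes was 0.0074. Differences below are PRDM16 minus PRDM16mut on this scale, with the standard error of the limma fit, which understates the change of genes with low FPKM. Levels are in FPKM, given for the first and then the second library of a group, and where 2 pairs are set against each other the PRDM16 pair stands first.

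**Figure D1:**
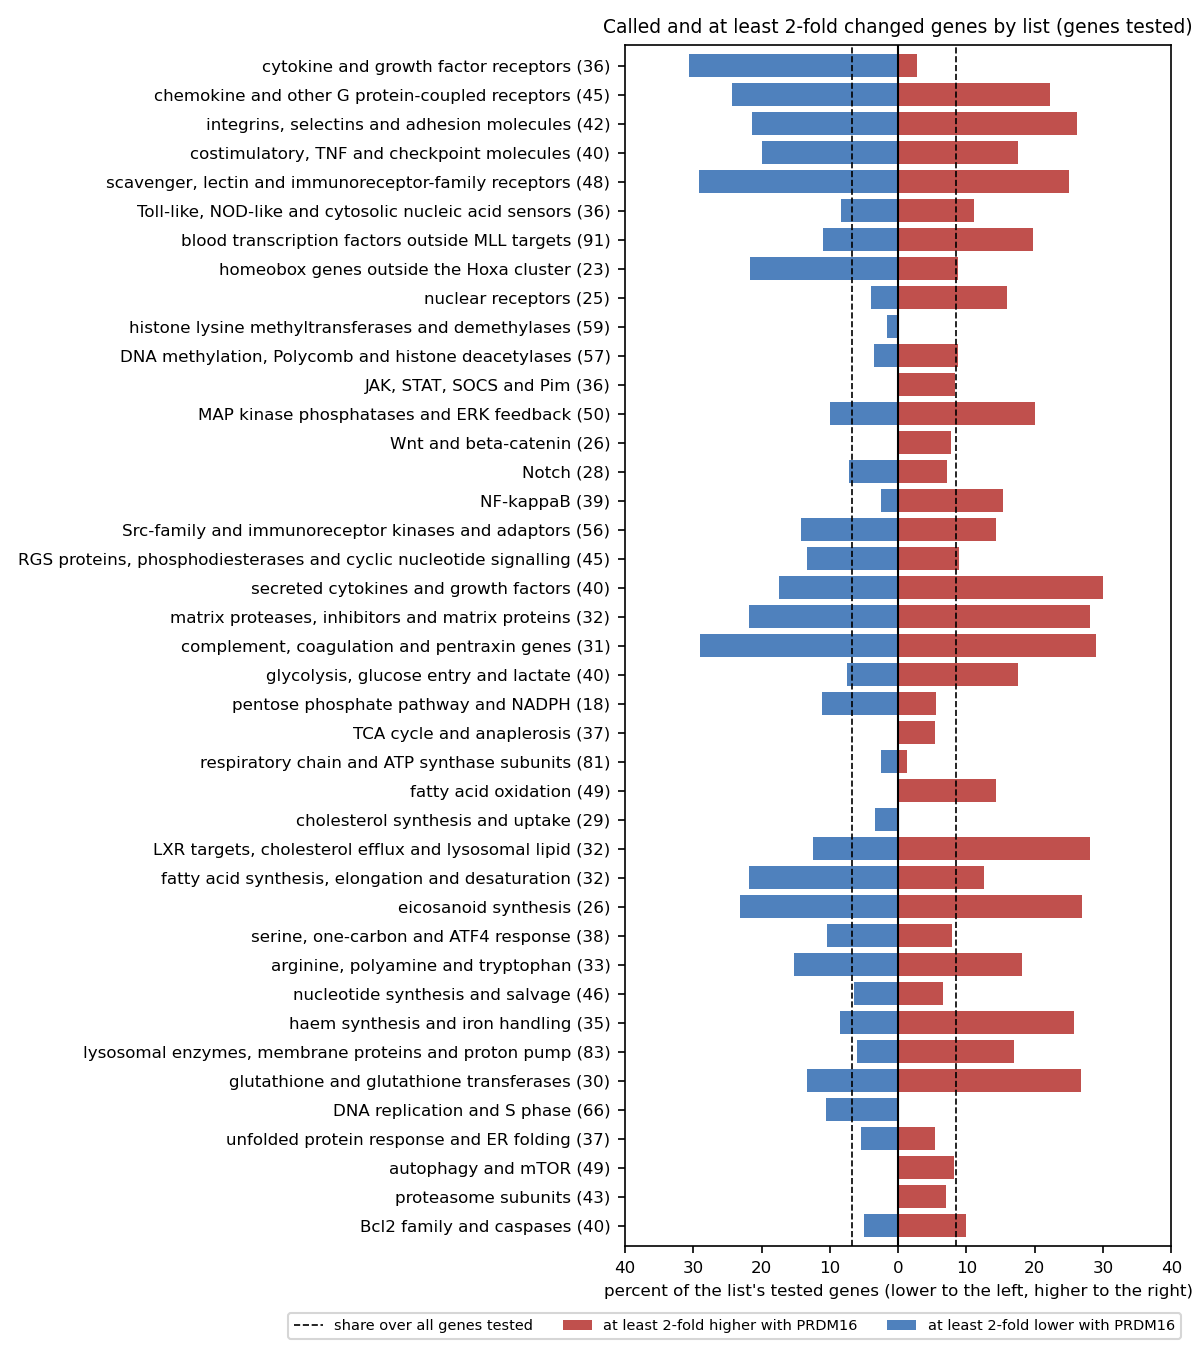
Percent of each list's tested genes that were called and at least 2-fold higher (red, to the right) or lower (blue, to the left) with PRDM16, with the number tested in parentheses and dashed lines at the shares over all tested genes (8.49% and 6.8%). Most surface and secreted lists reached past both lines, whereas histone methylation genes reached neither.

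Among the genes with large increases, Clec7a, the beta-glucan receptor Dectin-1, was at 251 and 226 FPKM with PRDM16 and 14.1 and 14.1 FPKM with PRDM16mut. It rose by 3.98 ± 0.07. Gbp2, an interferon-induced GTPase, was at 41.1 and 38.4 FPKM against 1.52 and 1.71 FPKM, and Mfge8, a bridge between dying cells and phagocytes, at 93.7 and 106 FPKM against 7.38 and 7.50 FPKM. Pdzk1ip1 (also called MAP17) was at 116 and 128 FPKM against 7.08 and 7.33 FPKM. These 4 genes were low in both PRDM16mut libraries and at least 10 times as high in both PRDM16 libraries. Cxcl16, a membrane-bound chemokine, rose by 3.61 ± 0.07, Ccl22, a chemokine of dendritic cells, by 3.11 ± 0.09 and Dsc2, a desmosomal cadherin, by 3.58 ± 0.07. Adjusted p was 7.6e-07 or less for the genes of this group.

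At the other end stood transcripts that fill neutrophil and mast cell granules or their cytosol. S100a8 and S100a9 encode the 2 chains of calprotectin, a protein that neutrophils hold in bulk. S100a9 was at 181 and 167 FPKM with PRDM16 and 15489 and 15566 FPKM with PRDM16mut, and S100a8 at 503 and 402 FPKM against 29619.8 and 28541 FPKM. Ltf, lactoferrin, was at 1.68 and 1.78 FPKM against 119 and 117 FPKM, and Lcn2, the siderophore-binding lipocalin, at 14.2 and 13.8 FPKM against 693 and 683 FPKM. All were far lower with PRDM16 than with PRDM16mut, though present, and S100a8 and S100a9 remained at 167 FPKM or more. Cd177, a neutrophil surface glycoprotein, was at 0.167 and 0.103 FPKM against 103 and 103 FPKM, and Mcpt2, a mast cell protease, at 0.237 and 0.167 FPKM against 79.7 and 75.2 FPKM. Penk, the precursor of the enkephalin peptides, was at 0.257 and 0.253 FPKM against 78.6 and 76.3 FPKM. Ceacam10, an adhesion molecule, was at 37.4 and 34.5 FPKM with PRDM16mut and listed at 0 with PRDM16, so no fold is given. The stefins Stfa1, Stfa2l1 and Stfa3 fell, with differences of -5.33, -7.10 and -6.82, but they are near-identical copies, and how reads were split between them is uncertain. The adjusted p of the genes given here was at most 4.2e-06.

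Among receptors for cytokines and growth factors, most changes of at least 2-fold were falls. Of 36 tested genes of 47 in the table, 18 fell and 14 rose, and 11 fell against 1 that rose by at least 2-fold (2 without PRDM16mut replicate 2). The list's median difference was -0.10. Kit, the receptor of SCF, which was in the medium, was at 5.29 and 6.07 FPKM with PRDM16 and 46.8 and 47.5 FPKM with PRDM16mut. Csf3r, the G-CSF receptor of granulocytes, was at 0.728 and 0.892 FPKM against 12.97 and 13.6 FPKM. Il1rl1, the IL33 receptor of mast cells and basophils, was at 1.03 and 1.10 FPKM against 41.0 and 41.1 FPKM, a difference of -4.34 ± 0.06. In each case both PRDM16 libraries lay far below both others. Il1r2, a decoy receptor for IL1, fell by 3.03 on the log2 scale, from 125 and 124 to 14.9 and 13.9 FPKM.

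The receptors for the other 2 cytokines in the medium behaved differently from one chain to the next. Il3ra, the chain specific to IL3, was at 17.5 and 22.0 FPKM with PRDM16 and 12.7 and 11.7 FPKM with PRDM16mut, and Csf2rb, the signalling chain that IL3, IL5 and GM-CSF share, at 146 and 162 FPKM against 99.8 and 99.6 FPKM. Both rose, by 0.65 ± 0.11 and 0.62 ± 0.07. Csf2ra, the GM-CSF chain, was at 27.7 and 32.6 FPKM against 85.0 and 83.0 FPKM, and Il6ra, the IL6 chain, at 1.21 and 1.84 FPKM against 6.00 and 6.00 FPKM. Both fell, with differences of -1.45 and -1.48. Il6st, the other chain of the IL6 receptor, had a difference of 0.27. Epor, the erythropoietin receptor, rose by 0.97 ± 0.07. Adjusted p was at most 0.0018 for the chains said to change. Csf2rb has a close paralog in the mouse, Csf2rb2, with a difference of 0.30, and reads may be split between them.

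Chemoattractant and other G protein-coupled receptors moved in both directions. Of 45 tested, 10 were called and at least 2-fold higher and 11 lower, with a median difference of 0.10. The receptors of 2 strong neutrophil attractants fell. C5ar1, which binds complement C5a, was at 0.922 and 0.600 FPKM with PRDM16 and 18.6 and 16.2 FPKM with PRDM16mut, and Ltb4r1, which binds leukotriene B4, at 1.82 and 3.05 FPKM against 38.1 and 38.0 FPKM. Cxcr4, which holds progenitors in the marrow, was at 42.9 and 40.1 FPKM against 101 and 103 FPKM, a difference of -1.28 ± 0.06. Cxcr2, a neutrophil chemokine receptor, fell by 0.84 on the log2 scale, to 2.96 and 3.16 FPKM from 6.39 and 6.17. Receptors that rose included Ccr7, which guides dendritic cells to lymph nodes, at 7.08 and 7.43 FPKM against 0.105 and 0.175 FPKM. Gpr56, an adhesion-type receptor of stem cells and some leukaemias, was at 185 and 215 FPKM against 25.3 and 24.1 FPKM, and P2ry10, a lysophospholipid receptor, at 12.4 and 11.9 FPKM against 1.39 and 1.30 FPKM. All of these had an adjusted p of 5.1e-05 or less.

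Integrins changed chain by chain. Integrins pair an alpha with a beta chain and tie cells to matrix or to other cells. The beta 2 partners fell: Itgal was at 1.47 and 1.72 FPKM with PRDM16 and 15.8 and 16.4 FPKM with PRDM16mut, Itgam at 42.3 and 45.3 FPKM against 119 and 119 FPKM, and the shared chain Itgb2 at 55.4 and 63.9 FPKM against 146 and 144 FPKM. Itgax, or CD11c, pairs with the same beta chain but rose, from 0.198 and 0.252 to 3.19 and 3.22 FPKM. Itgb7, which pairs with alpha 4 in homing to the gut, was at 96.5 and 112 FPKM against 22.4 and 22.7 FPKM, and Itga4 rose by 0.89 ± 0.06 with it. Itgb3, the platelet and macrophage beta chain, rose by 1.05 ± 0.07 and its partner Itga2b by 0.53 ± 0.09. Over the adhesion list 25 of 42 genes rose and 13 fell, 11 and 9 of them by at least 2-fold, and the median was 0.47.

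Other adhesion genes rose or fell. Selp, P-selectin, was at 33.3 and 35.3 FPKM with PRDM16 and 0.952 and 0.804 FPKM with PRDM16mut. Epcam, an adhesion molecule of epithelia and of early red cells, was at 18.5 and 18.6 FPKM against 2.37 and 2.47 FPKM, and Cd24a, a small glycosylphosphatidylinositol-anchored protein, at 498 and 457 FPKM against 155 and 154 FPKM. In these 3 genes the lower PRDM16 library was above the higher PRDM16mut library. Cd34, the sialomucin of progenitors, fell by 1.88 on the log2 scale, to 5.38 and 4.59 FPKM from 20.8 and 21.1. Cd37, a tetraspanin of leukocytes, fell by 3.27 and Cd47, which tells phagocytes not to engulf a cell, fell by 0.79. The largest adjusted p among them was 6.3e-05.

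**Figure D2:**
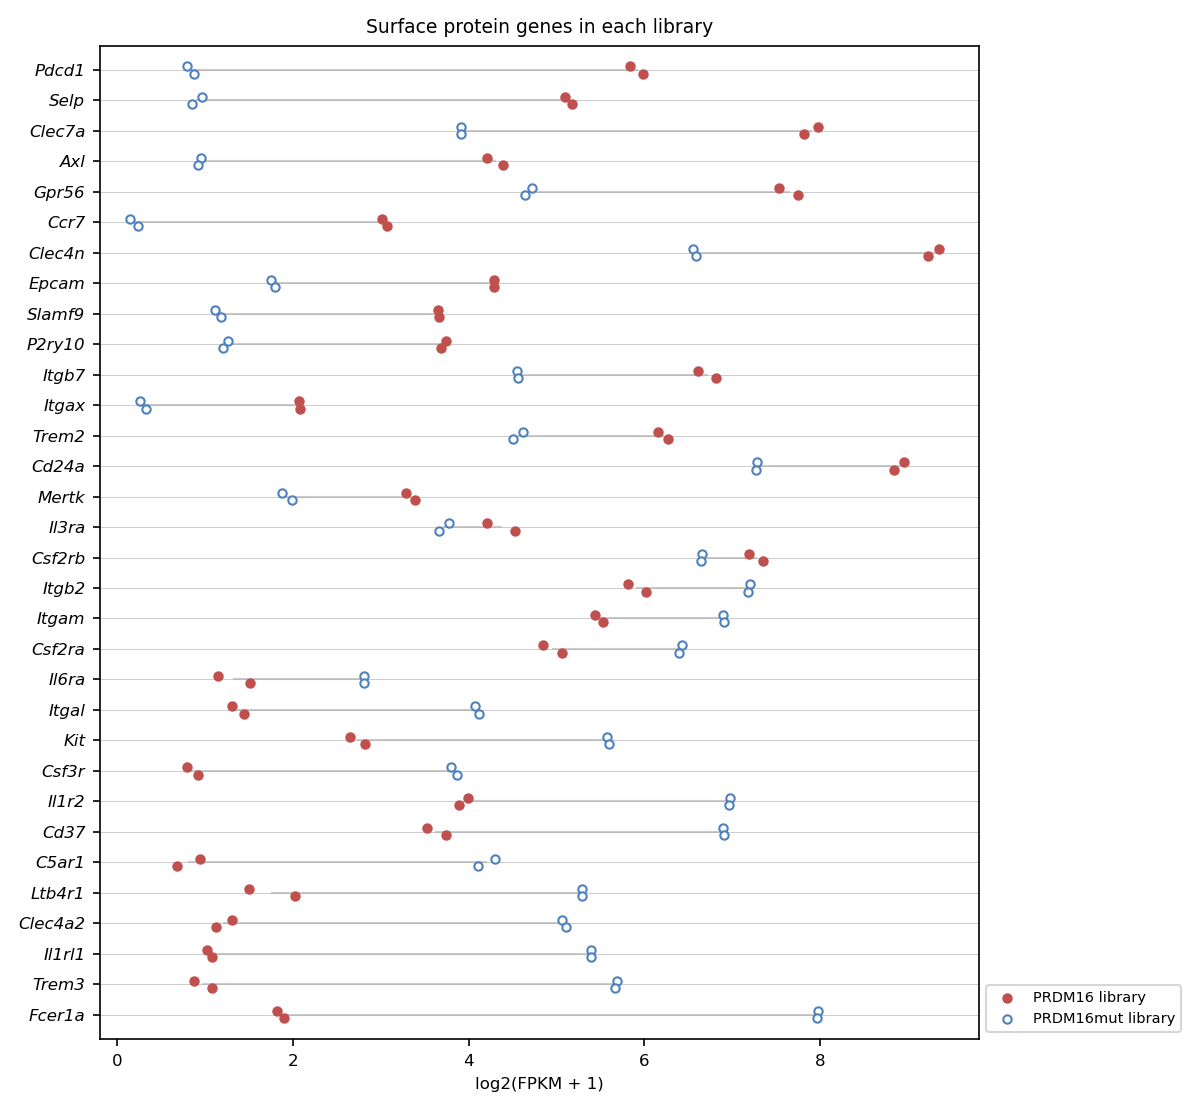
Level of 32 surface protein genes as log2(FPKM + 1), one row per gene, with both libraries of PRDM16 (filled red) and of PRDM16mut (open blue) and a line between the group means. From Pdcd1 at the top (log2 difference 5.08) to Fcer1a at the bottom (-6.12), the 2 libraries of a group lay closer to each other than to the other group.

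Among receptors for particles, dying cells and sugars, members of the same families rose and fell. Of 48 tested, 12 were at least 2-fold higher and 14 lower, against 15.3% of all genes in either direction, and the median was -0.05 (0.05 without PRDM16 replicate 2). Axl and Mertk, 2 of the 3 TAM kinases that sense phosphatidylserine on dying cells, both rose. Axl was at 17.6 and 19.9 FPKM with PRDM16 and 0.937 and 0.893 FPKM with PRDM16mut and Mertk at 8.76 and 9.48 FPKM against 2.67 and 2.96 FPKM. Trem2, a lipid-sensing receptor of macrophages, was at 70.2 and 76.4 FPKM against 23.6 and 21.7 FPKM, and Clec4n, the mannan receptor Dectin-2, at 654 and 602 FPKM against 93.0 and 95.0 FPKM. These were higher in both PRDM16 libraries. In contrast, Trem3 was at 0.836 and 1.12 FPKM against 50.7 and 49.9 FPKM and Clec4a2, an inhibitory lectin, at 1.48 and 1.18 FPKM against 32.5 and 33.5 FPKM. Fcer1a, the IgE-binding chain, fell by 6.12 and Fcgr2b, the inhibitory IgG receptor, fell by 2.29. Msr1 and Mrc1, the scavenger and mannose receptors of macrophages, fell, with differences of -1.13 and -1.09. Tyrobp, the adaptor through which Trem2 signals, rose by 0.43 ± 0.05. For each gene given, adjusted p was no more than 3.9e-04. Pilrb1 and Pilrb2, at differences of -3.68 and -3.26, fell but are near-identical copies, so their split is uncertain.

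Among molecules that steer T cells, Pdcd1, the inhibitory receptor PD-1, was at 56.4 and 62.5 FPKM with PRDM16 and 0.736 and 0.825 FPKM with PRDM16mut. Its ligand Cd274, PD-L1, was at 12.2 and 13.4 FPKM against 9.83 and 10.7 FPKM, with a difference of 0.30 ± 0.08 (adjusted p = 0.011). That call was lost without PRDM16mut replicate 1 (adjusted p = 0.15) and without replicate 2 (0.055). The costimulatory ligands parted: Cd86 rose from 1.04 and 0.997 to 3.11 and 2.64 FPKM and Cd80 fell from 2.61 and 2.52 to 0.744 and 0.903 FPKM. Slamf7 and Slamf9, receptors of the SLAM family, rose by 2.09 ± 0.08 and 2.51 ± 0.07. Cd276, B7-H3, fell by 2.77 on the log2 scale. Among sensors of microbes, 4 of 36 were at least 2-fold higher (11.1%) and 3 lower (8.33%), near the 8.49% and 6.8% of all genes. Tlr2, for bacterial lipoproteins, was at 28.4 and 28.6 FPKM against 8.14 and 7.47 FPKM, whereas Tlr4, for lipopolysaccharide, fell by 0.67. Of the endosomal sensors, Tlr9 rose by 1.27 ± 0.08 and Tlr7 fell by 1.21. Myd88, the adaptor of most of them, was at 36.1 and 38.0 FPKM against 36.8 and 36.8 FPKM and did not pass the test (adjusted p = 0.89).

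Transcription factors of blood rose more often than they fell. Of 91 tested, 54 rose and 28 fell, 18 and 10 of them by at least 2-fold, with a median of 0.40. After correction for GC content and length 54 rose and 31 fell, 15 and 11 of them by at least 2-fold, and the median was 0.29. The 2 growth factor independence repressors moved apart. Gfi1, needed for neutrophil maturation, was at 1.23 and 2.01 FPKM with PRDM16 and 88.6 and 88.8 FPKM with PRDM16mut, a difference of -5.12 ± 0.13. Gfi1b, its relative of red cells and platelets, was at 16.3 and 19.7 FPKM against 3.91 and 3.88 FPKM. Cebpe, which drives late granule genes, was at 6.46 and 7.11 FPKM against 106 and 105 FPKM, while Cebpa, which acts earlier in the same lineage, was at 38.2 and 42.7 FPKM against 18.3 and 16.2 FPKM. Cebpe thus fell with PRDM16 and Cebpa rose. Ets1 was at 1.02 and 1.09 FPKM against 22.0 and 21.9 FPKM, and its relatives Fli1 and Erg changed by -0.96 and 1.34.

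Several factors of other branches rose. Gata2, of stem and mast cells, was at 95.4 and 104 FPKM with PRDM16 and 31.1 and 31.5 FPKM with PRDM16mut, and Zfpm1, the cofactor FOG1 that GATA proteins bind, at 33.6 and 44.1 FPKM against 4.53 and 4.53 FPKM. Gata1 rose by 0.79 ± 0.06. Irf8, which directs monocytes and dendritic cells, was at 12.02 and 13.97 FPKM against 4.90 and 5.52 FPKM, and Bcl11a, of lymphoid and plasmacytoid cells, at 1.42 and 1.58 FPKM against 0.280 and 0.225 FPKM. Both Irf8 values with PRDM16 were more than 2 times those with PRDM16mut. Sox4 rose by 2.21 ± 0.11, Foxo1, a target of AKT, by 1.59 ± 0.09 and Spic, of iron-recycling macrophages, by 1.65 ± 0.08. Runx1 and Myb, kept high in progenitors, fell, with differences of -0.49 and -0.45, and Mxi1, an antagonist of Myc, fell by 1.99. Across these factors adjusted p was 3.9e-04 or below.

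Homeobox genes outside the Hoxa cluster were mostly below the level filter, with 23 of 56 tested. Meis1, a partner of Hoxa9 in MLL leukaemia, was at 11.4 and 10.6 FPKM with PRDM16 and 4.79 and 4.40 FPKM with PRDM16mut, a rise of 1.10 ± 0.07. Pbx3, a co-partner, was at 2.33 and 1.94 FPKM against 2.15 and 1.78 FPKM with no call (adjusted p = 0.48). Pknox2, a relative of Meis1, was at no more than 0.00876 FPKM with PRDM16 and at 3.24 and 3.22 FPKM with PRDM16mut. Hopx was at 6.59 and 4.12 FPKM with PRDM16mut and listed at 0 with PRDM16. Among nuclear receptors, Pparg, of lipid-handling macrophages and fat, was at 4.07 and 3.52 FPKM against 19.7 and 19.5 FPKM. The retinoid receptors Rarg, Rara and Rxra rose by 1.52 ± 0.08, 0.76 ± 0.11 and 1.07 ± 0.08, while Nr1h3, the sterol receptor LXR alpha, fell by 0.71 to 0.307 and 0.365 FPKM. Genes said to change here had an adjusted p of at most 9.9e-04.

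PRDM16 belongs to a family of histone lysine methyltransferases, and the genes of such enzymes and their erasers changed little. Of 59 tested, 11 rose and 29 fell, and 1 changed by at least 2-fold, and the median was -0.18 (-0.10 after correction for GC content and length). With either PRDM16mut library left out, 7 rose and 18 fell, and the number past 2-fold was 0 without PRDM16 replicate 1 and 2 without replicate 2. The gene past 2-fold was Mll1, which encodes MLL, at 2.41 and 2.80 FPKM with PRDM16 and 6.44 and 6.65 FPKM with PRDM16mut. Whether reads of the introduced MLL-AF9 add to the Mll1 level was not tested. Mll2, a relative of Mll1, fell by 0.87 and Nsd1, a histone H3 methyltransferase, fell by 0.88. Ehmt2, which methylates histone H3, and Kdm1a, an eraser that works with Gfi1, rose by 0.58 ± 0.08 and 0.61 ± 0.06. Dot1l, the histone methyltransferase that MLL-AF9 depends on, was at 6.55 and 8.79 FPKM against 11.4 and 10.9 FPKM, a difference of -0.50 ± 0.12 with adjusted p = 0.0095, and its call was lost without PRDM16mut replicate 1 (adjusted p = 0.052). Without PRDM16 replicate 1 the Dot1l difference was -0.31. Ezh1 was at 7.66 and 8.48 FPKM against 7.87 and 7.92 FPKM and did not pass the test (adjusted p = 0.74).

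Enzymes of DNA methylation parted more widely. The maintenance enzyme Dnmt1 was at 35.5 and 40.9 FPKM with PRDM16 and 67.4 and 68.9 FPKM with PRDM16mut, and the new-methylation enzyme Dnmt3a at 11.2 and 12.3 FPKM against 3.31 and 3.32 FPKM. Dnmt1 fell by 0.82 and Dnmt3a rose by 1.56 ± 0.07. Dnmt3b rose too, by 0.84 ± 0.06, and their cofactor Dnmt3l fell from 4.99 and 4.16 to 0.164 and 0.265 FPKM. Tet2 and Tet3, which oxidise methylated cytosine, fell, with differences of -0.73 and -0.92. Among Polycomb genes, Cbx6 rose by 1.35 ± 0.08, Pcgf5 fell by 1.36 and Bmi1 was at 15.7 and 14.7 FPKM against 14.8 and 15.0 FPKM with no call (adjusted p = 0.74). In the group as a whole 16 of 57 rose and 20 fell. Adjusted p was at most 1.1e-04 for those that changed.

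**Figure D3:**
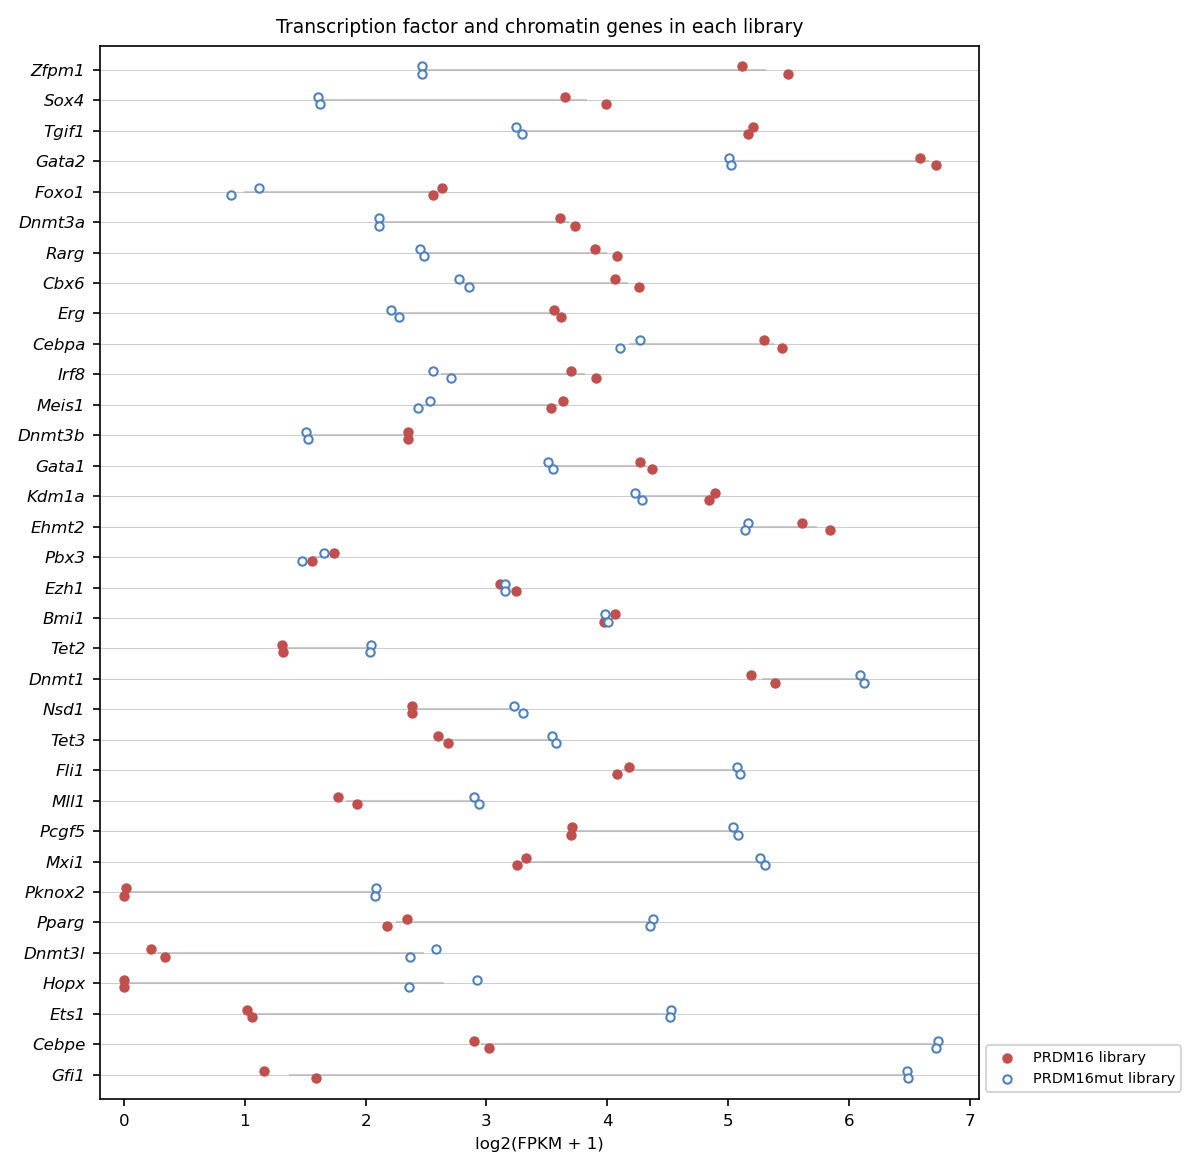
Level of 34 transcription factor and chromatin genes as log2(FPKM + 1) in each library, drawn like the plot of surface genes. Zfpm1 (2.84) and Gfi1 (-5.12) mark the ends, and the points of Pbx3, Ezh1 and Bmi1 in the middle intermix.

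In the JAK and STAT pathway, which carries the IL3 and IL6 signals, 17 of 36 genes rose and 10 fell, with a median of 0.26 that came to 0.07 after correction for GC content and length. Without PRDM16mut replicate 1 or 2, 5 fell, and without PRDM16 replicate 2 the median was 0.10. Pim2, a survival kinase, was at 93.3 and 99.0 FPKM with PRDM16 and 14.5 and 13.7 FPKM with PRDM16mut, Socs2, a feedback inhibitor, at 29.2 and 27.1 FPKM against 8.38 and 8.95 FPKM and Ccnd1, cyclin D1, at 9.16 and 9.48 FPKM against 1.55 and 1.66 FPKM. Each of these 3 was over 3 times as high with PRDM16. Pim1, a relative of Pim2, differed less, at 163 and 184 FPKM against 143 and 146 FPKM, and its call was lost without PRDM16mut replicate 1 (adjusted p = 0.13) or 2 (0.099), under quantile normalization (0.17) and after GC and length correction (0.083). Stat5a was at 18.5 and 19.96 FPKM against 9.64 and 9.69 FPKM, and Jak1 and Jak2 rose by 0.52 ± 0.05 and 0.61 ± 0.06. Cish, another feedback inhibitor, rose by 0.38 ± 0.07. For these, adjusted p did not exceed 0.013.

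Signalling below Ras changed in its switches. Rras2, a Ras relative, was at 19.99 and 15.96 FPKM with PRDM16 and 0.987 and 0.641 FPKM with PRDM16mut, and Rras at 36.5 and 41.3 FPKM against 9.17 and 8.53 FPKM. Rasgrp2, an exchange factor of platelets and neutrophils, was at 6.36 and 6.99 FPKM against 48.8 and 47.7 FPKM, and Rasa2, which turns Ras off, at 1.13 and 1.02 FPKM against 8.46 and 8.66 FPKM. The first pair rose and the second pair fell. Of the ERK feedback genes, Dusp6, Dusp4 and Spry2 fell, with differences of -0.99, -1.48 and -1.64, while Dusp5 and Dusp1 rose by 1.16 ± 0.08 and 1.02 ± 0.08. Over this list 10 of 50 were at least 2-fold higher and 5 lower. The median was 0.04, and its sign turned in 3 of 13 alternative analyses.

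Src, a kinase at the membrane, was at 5.51 and 6.73 FPKM with PRDM16 and 0.348 and 0.322 FPKM with PRDM16mut, and Fyn, of the same family, at 7.45 and 7.01 FPKM against 1.99 and 1.81 FPKM. Lyn, a further member, was at 61.2 and 59.2 FPKM against 58.7 and 57.6 FPKM and did not pass the test (adjusted p = 0.44). Some adaptors of immune receptors fell: Lat was at 3.63 and 4.60 FPKM against 17.9 and 19.0 FPKM, Sla at 8.67 and 8.09 FPKM against 54.5 and 53.5 FPKM and Lcp2 at 21.8 and 21.2 FPKM against 38.0 and 38.8 FPKM. The adaptor Lat2 rose, by 0.63 ± 0.06. Of 2 protein kinase C genes, Prkcq rose by 1.93 ± 0.07 and Prkcb fell by 2.13. Among cyclic nucleotide genes, Pde2a, a phosphodiesterase, was at 0.167 and 0.0848 FPKM against 23.7 and 23.4 FPKM, Rgs13, which curbs G protein signals in mast cells, at 0.0199 and 0 FPKM against 9.55 and 10.97 FPKM, and Rgs10, another such regulator, at 63.5 and 61.4 FPKM against 17.9 and 17.5 FPKM. Adjusted p reached at most 8.3e-05 in the genes that changed.

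In Notch signalling the receptor and its inhibitor moved in opposite ways. Notch1 was at 3.01 and 3.79 FPKM with PRDM16 and 19.0 and 19.4 FPKM with PRDM16mut, and Nrarp, a target that dampens the pathway, at 7.95 and 8.90 FPKM against 1.04 and 1.04 FPKM. Notch2 was at 6.08 and 6.89 FPKM against 6.53 and 6.74 FPKM with no call (adjusted p = 0.74), and Dtx4, a ubiquitin ligase of the pathway, fell by 2.40. Hes1, a standard target, rose by 0.58 ± 0.07. In NF-kappaB signalling 17 of 39 rose and 16 fell (10 without PRDM16mut replicate 2). Relb and Nfkb2 of the non-canonical branch rose, with Relb at 10.1 and 11.2 FPKM against 2.17 and 2.33 FPKM and Nfkb2 at 11.6 and 14.9 FPKM against 7.95 and 8.13 FPKM, and so did the adaptor Traf1, at 8.88 and 8.71 FPKM against 1.33 and 1.43 FPKM. Nfkbia, the inhibitor that the canonical branch induces, fell by 0.88. The canonical members Nfkb1, Rela and Rel had differences of 0.40, 0.35 and -0.25, so the 2 branches did not part cleanly in the main fit. Under the GC and length correction, given below, Rela changed sign and the rise of Nfkb2 was smaller. Wnt genes had 14 higher and 4 lower of 26 (9 and 1 without PRDM16mut replicate 1, 11 and 0 without replicate 2, and 14 and 7 without PRDM16 replicate 2), with Fzd4, a receptor, and Axin2, a feedback target, up by 1.34 ± 0.07 and 0.61 ± 0.07. Leaving aside Nfkb1, Rela and Rel, none of these adjusted p-values of changed genes was above 0.0022.

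Secreted products changed in both directions. Of 40 tested cytokine and growth factor genes, 12 were at least 2-fold higher and 7 lower, with a median of 0.49. Csf1, the macrophage growth factor, was at 42.0 and 45.7 FPKM with PRDM16 and 16.3 and 15.3 FPKM with PRDM16mut, and Il18, of the IL1 family, at 13.5 and 9.93 FPKM against 2.04 and 1.47 FPKM. Il1b, the fever cytokine, was at 7.58 and 8.92 FPKM against 0.319 and 0.470 FPKM. The galectins Lgals1 and Lgals3, which bind beta-galactosides, were abundant, at 1875 and 1913 FPKM against 499.5 and 491 FPKM and at 1263 and 1268 FPKM against 351 and 347 FPKM. All 5 were higher in both PRDM16 libraries. Npy, a neuropeptide, was at 38.1 and 42.4 FPKM against 0.513 and 0.351 FPKM. Vegfa, the vessel growth factor, was at 6.20 and 6.43 FPKM against 21.4 and 22.1 FPKM, a difference of -1.64, and Angpt1, a vessel-stabilising factor of stem cells, rose by 1.32 ± 0.07. Tnf fell by 0.53, to 2.63 and 3.05 FPKM. Adjusted p was 9.4e-04 or smaller in this group.

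Complement and clotting genes also moved in both directions. The 3 chains of C1q, the macrophage-made starter of the classical pathway, rose together. C1qb was at 31.0 and 32.3 FPKM with PRDM16 and 4.31 and 4.32 FPKM with PRDM16mut, C1qc at 14.8 and 18.2 FPKM against 2.38 and 2.58 FPKM and C1qa at 2.35 and 3.33 FPKM against 0.491 and 0.596 FPKM. Factor B, Cfb, of the alternative pathway, was at 24.7 and 27.8 FPKM against 4.28 and 3.82 FPKM, whereas C3 was at 58.6 and 65.8 FPKM against 143 and 146 FPKM. So Cfb rose and C3 fell. Clotting genes F7 and F13a1 fell, F7 from 78.1 and 78.3 to 1.62 and 2.08 FPKM, and F13a1 fell by 2.82 on the log2 scale. Fcnb, a ficolin of immature neutrophils, was at 0.399 and 0.818 FPKM against 59.3 and 59.2 FPKM. In the list, 9 of 31 were at least 2-fold higher and 9 lower. Matrix proteases also split, with Mmp12, the macrophage elastase, at 78.4 and 72.6 FPKM against 14.5 and 14.8 FPKM, Mmp14, a membrane collagenase, at 5.02 and 5.98 FPKM against 0.218 and 0.205 FPKM and Mmp8, the neutrophil collagenase, at 8.91 and 7.53 FPKM against 53.7 and 54.7 FPKM. Fn1, fibronectin, fell by 2.61. The adjusted p of each was at most 1.3e-04.

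Glycolysis as a whole did not move in one direction, with 15 of 40 genes higher, 13 lower and a median of 0.02 that turned negative in 4 of 13 alternative analyses (-0.030 without PRDM16 replicate 2). Hk2, which traps glucose, was at 14.9 and 14.9 FPKM with PRDM16 and 15.3 and 15.3 FPKM with PRDM16mut, and Gapdh at 291 and 297 FPKM against 302 and 303 FPKM. Neither passed the test (adjusted p = 0.58 and 0.48). At the lactate end, Ldha, the main lactate dehydrogenase chain, was at 576 and 617 FPKM against 676 and 658 FPKM, a difference of -0.16 ± 0.05 whose call was lost without PRDM16mut replicate 1 (adjusted p = 0.32) or 2 (0.21). Ldhb, the chain that favours lactate use, was at 32.5 and 34.0 FPKM against 3.22 and 3.71 FPKM, and Slc16a3, the lactate exporter, at 11.8 and 12.3 FPKM against 39.7 and 38.8 FPKM. Gpi1, at the branch to the pentose phosphate pathway, was at 255 and 287 FPKM against 488 and 493 FPKM. Pfkp, a phosphofructokinase, rose by 1.16 ± 0.05, and Slc2a3, a glucose carrier, fell by 0.83. In the pentose phosphate pathway, which supplies NADPH, 10 of 18 fell and 6 rose (8 and 3 without PRDM16mut replicate 1, and 8 and 3 without replicate 2). G6pdx, its first enzyme, was at 61.1 and 67.0 FPKM against 113 and 114 FPKM, and Tkt fell by 0.61, while malic enzyme Me1, another source of NADPH, rose from 0.922 and 0.947 to 4.49 and 4.12 FPKM. Adjusted p was no higher than 0.034 for the changed genes.

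Mitochondrial genes rose by small amounts in large numbers. Of 81 subunits of the respiratory chain and ATP synthase, 64 rose and 5 fell, while 1 rose and 2 fell by at least 2-fold, and the median was 0.43. The number that fell was 11 without PRDM16 replicate 1 and 3 without PRDM16mut replicate 1. The gene past 2-fold upward was Cox7a2l (log2 difference 1.27), and those downward were Cox7a1 and Cox4i2 (-1.37 and -1.28). Cox4i1, a cytochrome oxidase subunit, was at 777 and 849.6 FPKM with PRDM16 and 464 and 469 FPKM with PRDM16mut. Ndufs1, at 35.3 and 35.1 FPKM against 37.2 and 37.7 FPKM, did not pass (adjusted p = 0.18), though without PRDM16 replicate 1 it did (0.040). In the citric acid cycle 22 of 37 rose and 8 fell (4 with either PRDM16mut library left out), with Idh2 at 132 and 140.3 FPKM against 74.4 and 73.2 FPKM. Irg1, which diverts the cycle to itaconate, an antimicrobial metabolite of activated macrophages, was at 8.72 and 8.27 FPKM against 0.0821 and 0.131 FPKM. Fatty acid oxidation genes were 30 higher and 7 lower (4 with either PRDM16mut library left out) of 49, and included the carriers Fabp4 and Fabp5, at 20.2 and 18.3 FPKM against 2.82 and 1.81 FPKM and at 744 and 692 FPKM against 209 and 205 FPKM.

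Ribosomal protein genes showed the same form of change: 73 of 76 rose and none fell at the adjusted p (limma), yet none reached 2-fold (2 fell without PRDM16 replicate 1), with a median of 0.46. Rps20 was at 5333 and 4914 FPKM with PRDM16 and 2779 and 2776 FPKM with PRDM16mut. These transcripts are short, and the difference between groups moved with transcript length and GC content. With the genes in 10 equal bins by GC content, the median difference went from -0.22 in the lowest to 0.26 in the highest. By length it went from 0.14 in the bin of the shortest to -0.20 in that of the longest. Genes with at least 5 processed pseudogene copies, 143 in number, had a median of 0.25, against 0.0053 for genes without any. After the median of each GC and length class was taken off every library, the ribosomal median was 0.33 with 64 higher, and that of the respiratory chain 0.32 with 61 higher and 8 lower. Quantile normalization brought the ribosomal median to 0.15 and the respiratory one to 0.25. Some single genes given above or below moved by more than 1.5 times under the GC and length correction and kept their call. The difference became 0.36 for Il3ra, 0.57 for Epor, 0.77 for Irf8, 0.38 for Rara, 0.67 for Rxra and 0.26 for Nfkb2. It became -0.42 for Tlr4, 0.32 for Axin2, 0.58 for Idh2, 0.28 for Tyrobp and 0.47 for Cd274. For Lamp1, Tfeb, Gpx4 and Bax it was 0.27, 0.46, 0.33 and 0.29. Under quantile normalization it was 0.15 for Tyrobp, 0.51 for Rps20, 0.23 for Lamp1 and 0.41 for Gpx4.

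**Figure D4:**
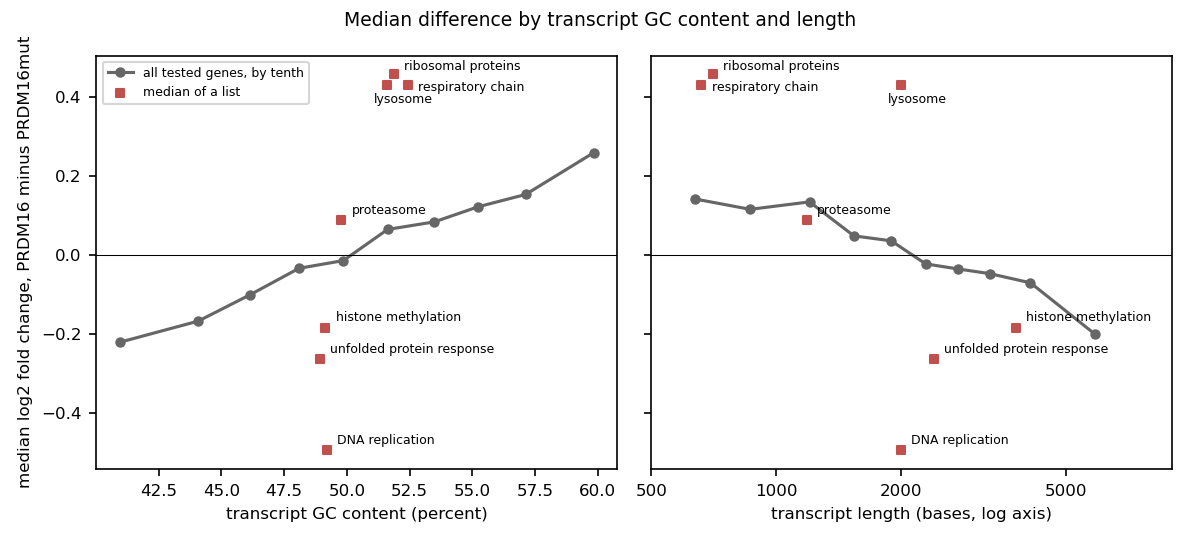
Median log2 difference (PRDM16 minus PRDM16mut) of all tested genes in 10 bins by transcript GC content (left) and length (right, log axis), with squares for the medians of 7 gene groups at their median GC content or length. The grey line rises from -0.22 to 0.26 with GC content and falls from 0.14 to -0.20 with length. Squares of ribosomal proteins, the respiratory chain and the lysosome (0.46, 0.43 and 0.43) stand above it. Those of DNA replication, unfolded protein response and histone methylation genes (-0.49, -0.26 and -0.18) stand below it.

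Lysosomal genes rose more often than they fell. Of 83 tested, 52 rose and 10 fell, 14 and 5 of them by at least 2-fold, with a median of 0.43 (0.41 after GC and length correction). Several proteases that cut proteins for antigen presentation rose. Ctss, cathepsin S, was at 633 and 604 FPKM with PRDM16 and 139 and 139.7 FPKM with PRDM16mut, and Lgmn, legumain, at 213 and 228 FPKM against 43.4 and 44.3 FPKM. Ctsb was at 548 and 581 FPKM against 208 and 208 FPKM, and Ctsh at 105 and 102 FPKM against 25.4 and 23.2 FPKM. Each of the 4 was more than 2.5 times as high in either PRDM16 library as in either PRDM16mut library. Gpnmb, a glycoprotein of lipid-laden macrophages, was at 493 and 529 FPKM against 101 and 99.2 FPKM. Not all members followed: Ctsl, cathepsin L, was at 52.3 and 51.7 FPKM against 125 and 122 FPKM and Arsb, arylsulfatase B, at 7.36 and 7.53 FPKM against 46.5 and 45.0 FPKM, both lower. Lamp1 rose by 0.42 ± 0.05, while Lamp2 was at 132 and 126 FPKM against 126 and 127 FPKM without a call (adjusted p = 0.63). Tfeb, a master regulator of lysosomal genes, rose by 0.75 ± 0.09, from 7.45 and 6.78 to 11.7 and 13.6 FPKM. Apart from Lamp2, adjusted p was at most 3.6e-04.

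Many lysosomal promoters hold an element known as CLEAR, which TFEB and its relatives bind. Its core, searched here as the 8 letters GTCACGTG on either strand within 250 bases before and 50 after each start site, was in the promoters of 17 of 61 tested lysosomal genes with a RefSeq entry (27.9%). It was in those of 424 of 8273 tested genes (5.13%) and in 738 of all 32851 promoter entries (2.25%). Within the lysosomal list the share was 27.0% of 37 genes that rose, 28.6% of 7 that fell and 29.4% of 17 that were not called. No difference between these shares was tested, and that of the genes that fell rests on 2 of 7. The windows below are those of the 4 holders that were at least 2-fold higher (Clcn7, a chloride carrier, Glb1, beta-galactosidase, Lgmn and Naglu, a heparan sulfate hydrolase) and of the 2 that were lower (Igf2r, the mannose 6-phosphate receptor, and Slc36a1, an amino acid carrier). They are from RefSeq on GRCm38.p6, read 5′ to 3′ along the gene, with the core in capitals.
Clcn7: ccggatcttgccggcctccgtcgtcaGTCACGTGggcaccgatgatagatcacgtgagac
Glb1: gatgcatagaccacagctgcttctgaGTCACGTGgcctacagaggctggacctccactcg
Lgmn: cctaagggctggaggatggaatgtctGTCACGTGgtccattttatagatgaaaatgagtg
Naglu: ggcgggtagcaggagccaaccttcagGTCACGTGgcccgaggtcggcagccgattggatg
Igf2r: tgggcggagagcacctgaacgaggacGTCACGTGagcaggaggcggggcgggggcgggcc
Slc36a1: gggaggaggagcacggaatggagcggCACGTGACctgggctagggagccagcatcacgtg
They lie at chr17:25133348-25133407, chr9:114401002-114401061, chr11:101069993-101070052 and chr11:55204283-55204342, for Clcn7, Glb1, Naglu and Slc36a1, on the plus strand, and at chr12:102439110-102439169 and chr17:12769723-12769782, for Lgmn and Igf2r, on the minus strand, each in the promoter window of its gene. Clcn7, Naglu, Igf2r and Slc36a1 were chosen after their values were seen. The log2 differences of these genes were 1.12, 1.19, 2.30, 1.05, -1.51 and -0.83 in the order shown. In Slc36a1 and Igf2r the same 8 letters thus stood beside lower levels. Slc36a1 holds them in the reverse orientation, as CACGTGAC.

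Several genes of cholesterol efflux rose. Abca1 and Abcg1 pump cholesterol out of the cell and Apoe carries it away. Abca1 was at 5.16 and 5.12 FPKM with PRDM16 and 0.704 and 0.765 FPKM with PRDM16mut, Abcg1 at 24.0 and 25.2 FPKM against 7.08 and 7.22 FPKM and Apoe at 16.5 and 20.2 FPKM against 4.62 and 4.49 FPKM. The lipases Lipa, of the lysosome, and Lpl, which is secreted, were at 145 and 137 FPKM against 35.7 and 35.3 FPKM and at 68.7 and 59.1 FPKM against 17.6 and 17.2 FPKM. In all 5 genes both PRDM16 libraries were over 3 times the higher PRDM16mut library. Mylip, another target of the sterol receptor LXR, was at 4.33 and 4.50 FPKM against 4.78 and 4.35 FPKM and did not pass (adjusted p = 0.66). In this list 9 of 32 were at least 2-fold higher and 4 lower. In synthesis and uptake 13 of 29 fell and 4 rose. Those counts were 8 and 2 without PRDM16mut replicate 1, 9 and 2 without replicate 2, and 15 and 7 without PRDM16 replicate 1. Fdps, which makes farnesyl diphosphate, was at 121 and 123 FPKM against 350.4 and 350.2 FPKM. Adjusted p was 1.0e-05 or less for the genes that moved.

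Fat synthesis changed step by step. Fasn, which builds palmitate, was at 23.4 and 31.0 FPKM with PRDM16 and 56.1 and 58.0 FPKM with PRDM16mut, and Agpat2, which makes phosphatidic acid, and Dgat2, the last enzyme of triglyceride assembly, at 12.6 and 13.1 FPKM against 51.3 and 49.4 FPKM and at 1.41 and 1.37 FPKM against 20.3 and 21.4 FPKM. These 3 fell. The desaturase Scd1 rose by 1.42 ± 0.06 and Fads2 was at 64.2 and 75.8 FPKM against 18.9 and 18.6 FPKM, also higher, and Acss2, which activates acetate, rose by 1.29 ± 0.06. Eicosanoid genes, which turn arachidonate into signals, had 7 of 26 at least 2-fold higher and 6 lower. The 2 cyclooxygenases moved apart, with Ptgs1 at 20.7 and 20.4 FPKM against 129.5 and 128 FPKM and the inducible Ptgs2 at 2.23 and 2.58 FPKM against 0.370 and 0.316 FPKM. Hpgd, which breaks prostaglandins down, was at 2.43 and 2.31 FPKM against 25.6 and 25.9 FPKM. In the leukotriene branch Alox5 rose by 0.89 ± 0.06 and Ltc4s, for leukotriene C4, by 1.15 ± 0.06, while Lta4h, for leukotriene B4, fell by 1.49. The largest adjusted p of these genes was 3.2e-04.

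Amino acid enzymes included some of the steepest falls. Tph1 and Ddc, the consecutive steps from tryptophan to serotonin, were at 0.439 and 0.795 FPKM with PRDM16 and 108 and 112 FPKM with PRDM16mut and at 0 and 0.0283 FPKM against 8.57 and 9.69 FPKM. Maob, which degrades amines, was at 0.0631 and 0.0233 FPKM against 12.6 and 13.1 FPKM, and Arg1, which splits arginine to ornithine, at 0.0204 and 0.0376 FPKM against 25.5 and 23.7 FPKM. All 4 were below 1 FPKM in both PRDM16 libraries. In the opposite direction Ass1, which recycles citrulline to arginine, was at 32.7 and 34.0 FPKM against 2.84 and 3.50 FPKM, and Kynu, of the kynurenine branch of tryptophan breakdown, at 11.6 and 11.6 FPKM against 0.736 and 0.670 FPKM. In serine and one-carbon metabolism 15 of 38 rose and 14 fell. Psph, the last step of serine synthesis, fell by 1.38 and Asns, asparagine synthetase, fell by 0.99. Their regulator Atf4 fell by 0.55, whereas Ddit3 was at 22.4 and 22.7 FPKM against 21.2 and 21.5 FPKM with no call (adjusted p = 0.25). Further members of this list went both ways or hardly differed. Trib3, Slc7a11 and Slc3a2 had differences of 0.79, 0.70 and 0.57, and Atf5 and Cth of -2.05 and -1.81. Phgdh and Psat1 were at 0.07 and 0.04. Leaving aside these further members, adjusted p was at most 8.3e-05 in the genes that changed.

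Iron storage transcripts were among the most abundant in the cells. Fth1, the ferritin heavy chain, was at 7679.7 and 7544 FPKM with PRDM16 and 1524 and 1516 FPKM with PRDM16mut, and Ftl1, the light chain, at 13092 and 13903 FPKM against 6053 and 6042 FPKM. Both rose, by 2.32 ± 0.04 and 1.16 ± 0.05, though ferritin genes have many pseudogene copies that can share their reads. Slc11a1, the NRAMP1 pump of phagosomes, was at 18.7 and 20.8 FPKM against 3.50 and 3.85 FPKM, Tfr2, a transferrin receptor of liver and red cells, at 9.73 and 11.7 FPKM against 1.06 and 0.881 FPKM, and Cp, the ferroxidase ceruloplasmin, at 6.97 and 6.66 FPKM against 0.126 and 0.182 FPKM. The main transferrin receptor Tfrc fell by 0.70, and Alas1, which starts haem synthesis, was at 53.2 and 59.9 FPKM against 141 and 142 FPKM. Slc25a37, the mitochondrial iron carrier, fell by 1.57. Of the list's 35 tested genes 9 were at least 2-fold higher and 3 lower (7 and 3 after GC and length correction). No adjusted p of these genes passed 1.8e-04.

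Glutathione genes moved in both directions. Gclm and Gss, of its synthesis, rose by 1.04 ± 0.05 and 0.82 ± 0.08, while Gsr, which regenerates it, fell by 0.97. Gpx3, the secreted peroxidase, was at 1.92 and 2.15 FPKM with PRDM16 and 114 and 109 FPKM with PRDM16mut, and Mgst2, a membrane transferase, at 11.2 and 11.4 FPKM against 286 and 278 FPKM. Gpx4, which protects lipids, rose by 0.62 ± 0.05. By count 17 of 30 rose and 8 fell. Of 384 solute carriers in the table, 192 were tested, with 77 higher, 65 lower and a median of 0.054. Slc15a3, a lysosomal peptide carrier, rose to 53.4 and 57.1 FPKM from 6.64 and 6.66 and Slc22a4, the ergothioneine carrier, fell by 2.51. Of 26 ABC transporters tested of 50, 8 rose and 10 fell, where 36.5% and 34.8% of all genes did. Of 243 tested zinc finger genes with a Zfp symbol, 73 rose and 79 fell, and 7 and 2 did so by at least 2-fold. Without PRDM16mut replicate 1, 44 rose and 51 fell, and without replicate 2, 42 and 47. Adjusted p was at most 1.1e-04 for the named genes.

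**Figure D5:**
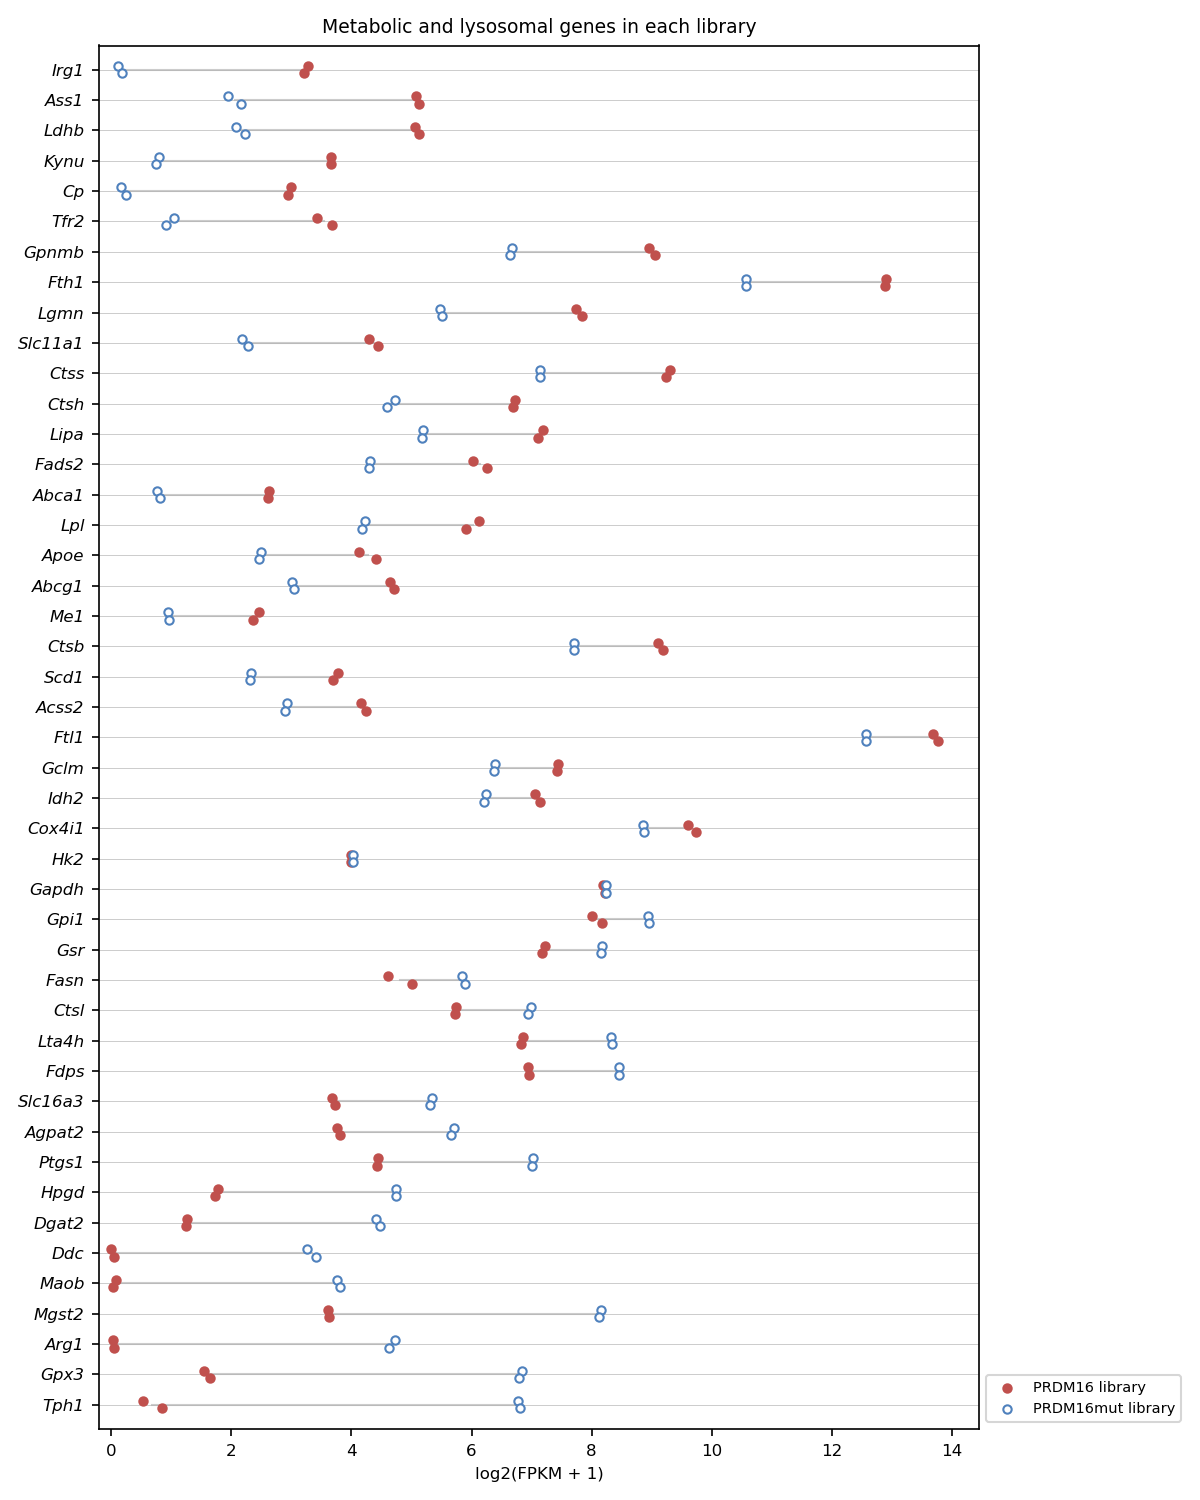
Level of 45 metabolic and lysosomal genes as log2(FPKM + 1) in each library, drawn like the plot of surface genes. Irg1 (3.10) and Tph1 (-6.11) are the ends, the ferritin genes Fth1 and Ftl1 reach the highest levels, and the points of Hk2 and Gapdh lie side by side.

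DNA replication genes fell nearly throughout: 54 of 66 fell and 2 rose (1 with either PRDM16mut library left out), with a median of -0.49 (-0.51 after GC and length correction), and 7 fell by at least 2-fold. Cdc45, of the replicative helicase, was at 17.7 and 18.8 FPKM with PRDM16 and 47.1 and 49.6 FPKM with PRDM16mut, and Cdk2, which starts S phase, at 22.1 and 22.7 FPKM against 49.6 and 50.6 FPKM. Mcm5, a helicase subunit, fell by 0.65, and Pcna, the sliding clamp, fell by 0.39. In nucleotide synthesis 20 of 46 fell and 12 rose. Tk1, thymidine kinase, was at 31.3 and 31.2 FPKM against 57.4 and 56.0 FPKM, and Rrm1, of ribonucleotide reductase, fell by 0.78. Samhd1, which destroys deoxynucleotides, rose instead, to 71.1 and 68.6 FPKM from 31.1 and 30.7. Adjusted p was 0.0012 or lower for all of them.

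Among genes of protein folding in the endoplasmic reticulum 21 of 37 fell and 7 rose, with a median of -0.26. Hspa5, the chaperone BiP, was at 379 and 354 FPKM with PRDM16 and 576 and 567 FPKM with PRDM16mut, and Hsp90b1 at 253 and 229 FPKM against 499 and 506 FPKM, both lower. Txndc5, a disulfide isomerase, was at 76.0 and 82.0 FPKM against 18.2 and 17.4 FPKM, higher. The immunoproteasome subunits Psmb8 and Psmb10 rose. Psmb8 was at 142 and 157 FPKM against 67.2 and 64.8 FPKM, Psmb10 at 81.7 and 94.5 FPKM against 36.5 and 34.2 FPKM and the activator Psme1 at 288 and 282 FPKM against 134 and 129 FPKM, whereas the constitutive subunit Psmb7 was at 204 and 204 FPKM against 211 and 212 FPKM with no call (adjusted p = 0.36). In the proteasome list 18 of 43 rose and 5 fell, and its median of 0.09 became -0.02 after quantile normalization. With either PRDM16mut library left out, 11 rose and 1 fell, and the counts were 22 and 11 without PRDM16 replicate 1. Autophagy genes Gabarapl1 and Sqstm1, a membrane tag and a cargo receptor, rose by 1.79 ± 0.05 and 1.13 ± 0.05, with 19 of 49 higher and 16 lower (8 lower without PRDM16mut replicate 1 and 9 without replicate 2).

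Cell death genes moved on both sides. The survival genes Bcl2l1 and Bcl2 rose by 0.94 ± 0.07 and 0.69 ± 0.06. The death genes Bbc3, Bax and Bcl2l11 rose as well, Bbc3 from 9.31 and 9.13 to 20.2 and 23.4 FPKM. Their differences were 1.15, 0.59 and 0.46. Apaf1, which forms the apoptosome, was at 7.15 and 6.97 FPKM with PRDM16 and 20.5 and 20.6 FPKM with PRDM16mut, and fell. Over the list 16 of 40 rose and 12 fell, with a median of 0.06 (-0.011 without PRDM16 replicate 2). Bcl2a1b and Bcl2a1d, of a family of near-identical copies, rose by 2.08 ± 0.08 and 1.65 ± 0.14 with an uncertain split. The adjusted p-values ran up to 7.4e-04.

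Markers of other cells were read in the same libraries, and in bulk RNA fewer cells of a type and less RNA per cell cannot be told apart. T and B cell genes summed to 6.96 and 7.48 FPKM with PRDM16 and to 6.92 and 7.08 FPKM with PRDM16mut, and 3 of 20 were tested, none of them called by limma (1 without PRDM16 replicate 1). Dendritic cell genes summed to 1287 and 1399 FPKM with PRDM16 and to 159.8 and 157 FPKM with PRDM16mut, and 10 of 11 tested members rose. With PRDM16 most of this sum was Cd74 and H2-Aa, at 897 and 977 FPKM against 28.9 and 30.1 FPKM and at 199 and 217 FPKM against 8.35 and 8.63 FPKM. Markers that define conventional dendritic cells were low in every library: Cd209a was listed at 0, Xcr1, Clec9a and Flt3 were at no more than 0.147 FPKM, and Zbtb46, chosen for this after its values were seen, was at 0.360 and 0.280 FPKM against 0.0198 and 0.0364 FPKM. Stromal, endothelial and fat genes summed to 125 and 132.1 FPKM with PRDM16 and to 58.7 and 56.3 FPKM with PRDM16mut, with 5 of 6 tested members higher. The list included Cebpa and Fabp4, given above, which myeloid cells also express. Tek of the same list rose by 1.22 on the log2 scale, and Acta2 fell, with a difference of -1.41. Adipoq was listed at 0, and Col1a1, Pdgfra and Cdh5 were at no more than 0.111 FPKM. Of the antigens that mark immature marrow cells, Ly6a was at 493 and 484 FPKM against 182 and 183 FPKM and Procr at 5.01 and 4.83 FPKM against 0.643 and 0.643 FPKM, both higher, and Kit, Cd34, Fcgr2b and Fcgr3 were lower. The part that mixtures of cells played in the results was not tested.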

How the data were processed

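RNA of 4 mouse libraries was read from the FPKM table that the authors deposited for this cotransduction. Per the submitters' processing notes, reads were handled with TopHat2 2.0.3, Bowtie2 2.0.0.7 and Cuffdiff on mm9. The sources used here do not give the annotation, the masking or the scaling between libraries. Samples were grouped by their labels. Of 23309 entries, 739 for Rn45s and small RNAs were left out. Genes that reached 1 FPKM in 2 or more libraries (10949) were kept, and log2(FPKM + 1) was fitted with limma 3.58.1 in R 4.3.3 with a mean-dependent prior variance. P-values are two-sided and adjusted by Benjamini-Hochberg over all 10949 genes, with calls at 0.05. An exact permutation test of 2 libraries against 2 cannot go below 0.33 for a single gene.

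The members, the 50 gene lists and the tests were chosen with earlier results of these data known. Named genes were the 20 largest and 20 smallest changes, the 8 largest and smallest of each category, up to 4 called members of each list, and anchors named whatever their value. Genes already described for these cells, clone names and 19 symbols turned into dates were passed over in the ranking. GC content and length came from GENCODE gene models of GRCm38 by symbol, for 10576 of the tested genes (96.6%). Pseudogene copies were found with minimap2 2.31, and promoters are RefSeq's. The alternatives were another pseudocount, no or a stricter filter on low values, upper quartile scaling, quantile normalization, no trend, a replicate block and each library left out. A GC and length correction and the averaging of the mutant libraries were added after the data were seen. The 8 columns of the tables of other experiments were not used.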

Additional observations from a re-analysis of the deposited data

How the results depend on the processing

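The count of genes called was 7803 and lay between 5681 and 8880 when each library was left out in turn, lowest without a PRDM16mut library. The genes called and at least 2-fold, 1675, lay between 1667 and 1719. The other alternatives gave 5682 to 8822 and 1200 to 2220 genes, and no count moved by more than 1.5 times. With a pseudocount of 0.1 the 2-fold count was 2220. Same-numbered libraries deviated together with a correlation of 0.086 over 2 pairs, so the numbers were not taken as pairing the samples, and the replicate block gave 8051 and 1678 genes. Of 528 named genes, 43 and 38 lost their call without PRDM16mut replicate 1 or 2, and 15 did so under the GC and length correction. Of 50 list medians, 15 changed sign under at least 1 of the 13 alternatives, most often under the GC and length correction (7). For glycolysis, fatty acid synthesis, autophagy, cell death, DNA methylation, scavenger receptor, zinc finger and T and B cell genes the median, or its shift, was smaller than the spread between replicates (1 SD of the library medians). The other changes of sign follow. Under the GC and length correction the medians were -0.0043 for Toll-like and NOD-like receptors, -0.010 for MAP kinase genes, -0.0090 for Notch genes and -0.033 for serine and ATF4 genes. With an FPKM of at least 5 they were 0.070 for homeobox, -0.015 for MAP kinase and -0.030 for Notch genes. Complement genes were at -0.0036 without a filter, the proteasome at -0.024 after quantile normalization, and MAP kinase genes at -0.00016 without PRDM16 replicate 2, where leaving out the other libraries gave up to 0.031. Sign changes of single named genes are given where the gene was called in the main or the altered analysis. Under the GC and length correction such genes were Ccr2 (0.0021), Ezh2 (0.021), Fcer1g (-0.010), Gstm1 (-0.12), Impdh2 (-0.014), Myd88 (-0.28), Pgls (-0.0099), Ppat (0.16), Ptprc (0.0055), Rela (-0.049), Srm (-0.36) and Tgfb1 (-0.25). After quantile normalization they were Fcer1g (-0.084), Impdh2 (-0.021) and Pgk1 (-0.15), and Srebf1 ranged from -0.22 to 0.17 with each library left out, above 0 without PRDM16 replicate 1. The cause was not tested. The files give no counts, so the precision of single FPKM values is unknown.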

Other observations

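Genes of the Y chromosome did not move together. Eif2s3y, which encodes a subunit of the initiation factor eIF2, was at 33.2 and 28.8 FPKM with PRDM16 and at 5.05 and 5.07 FPKM with PRDM16mut. Ddx3y, an RNA helicase, was at 10.0 and 8.68 FPKM against 14.4 and 13.9 FPKM. The demethylases Kdm5d and Uty were at 3.02 and 3.43 FPKM against 3.84 and 3.69 FPKM and at 5.06 and 4.20 FPKM against 5.12 and 4.61 FPKM. Only Eif2s3y of these 4 was higher in both PRDM16 libraries. Its X-linked relative Eif2s3x was at 62.0 and 60.0 FPKM with PRDM16 and at 82.1 and 82.3 FPKM with PRDM16mut. How reads were split between Eif2s3y and Eif2s3x was not tested. These genes were chosen after their values were seen.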
